A study of Mus musculus with 20 samples.

Results

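The transcription regulators of mitochondrial biogenesis are 10 genes of the nucleus, Ppargc1a, Ppargc1b, Perm1, Esrra, Esrrb, Esrrg, Ppara, Ppard, Nrf1 and Tfam, taken by gene name from a table of 22660 genes measured in plantaris muscle. The mice were male C57BL/6 J animals, 2 years old by their labels, and a single RNA library was made per mouse, with 5 mice in each of 4 groups. MOV mice had part of the gastrocnemius and soleus removed so that the plantaris was mechanically overloaded, whereas in sham mice only the skin was opened, and muscle was collected 14 days after surgery. Mice received vehicle or D + Q by gavage, the latter a mixture of the kinase inhibitor dasatinib at 5 mg/kg and the flavonoid quercetin at 50 mg/kg. The groups were therefore vehicle sham and vehicle MOV, and likewise D + Q sham and D + Q MOV. Gavage was on days 7 and 10 of MOV, and for sham mice the second gavage is given as day 10 in the protocol and as day 14 in the description of the study.

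Mitochondria are built from proteins of both the nuclear and the mitochondrial genome, and the coactivator PGC-1α (Ppargc1a) and its relative PGC-1β (Ppargc1b) adjust the nuclear part by docking on DNA-binding factors. In muscle these partners include the estrogen-related receptors ERRα, ERRβ and ERRγ (Esrra, Esrrb, Esrrg), which act on genes of oxidative phosphorylation, and the lipid-sensing receptors PPARα and PPARδ (Ppara, Ppard), which act on genes of fatty acid use. PERM1 (Perm1) is a muscle protein induced by PGC-1 and ERR, nuclear respiratory factor 1 (Nrf1) acts on promoters of respiratory chain genes and of Tfam, and TFAM packages mitochondrial DNA and starts its transcription. Endurance exercise is known for raising Ppargc1a, and slow oxidative fibres for carrying more of this programme than fast glycolytic fibres.

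By the GENCODE annotation of GRCm39, Ppargc1a lies on the minus strand at chr5:51611592-51725068, Esrra at chr19:6888338-6899336 (minus), Esrrb at chr12:86407887-86568409 (plus), Esrrg at chr1:187340988-187947082 (plus), Perm1 at chr4:156300325-156314305 (plus), Tfam at chr10:71061287-71074110 (minus), Nrf1 at chr6:30047892-30153462 (plus), Ppara at chr15:85618656-85687067 (plus) and Ppard at chr17:28451674-28520448 (plus). Ppargc1b carries the microRNA gene Mir378a on its own strand. Protein-coding genes on the opposite strand overlap Perm1 (Plekhn1 and Klhl17), Esrra (Trmt112) and Ppara (Cdpf1). Whether counting used strand is not given in the sources used here, so reads in those overlaps may have been split either way. Counts were made per gene and cannot tell the transcript forms of Ppargc1a apart.

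The 250 bases before the start of the Ensembl canonical transcript (GRCm39) are shown for Ppargc1a and Perm1, a coactivator and a gene induced by it, because each held 1 of 7 motifs searched on both strands, the match being in capitals. The windows of the other 7 regulators read held no full match to the motifs, and partial matches were not searched. For Ppargc1a that transcript starts at chr5:51711264, which is 13804 bases inside the gene as annotated, since longer forms start further upstream, whereas for Perm1 it starts at the edge of the gene. The Ppargc1a stretch, chr5:51711265-51711514 read on the minus strand, holds a cyclic AMP response element, TGACGTCA, from -83 to -76 relative to that transcript start. The Perm1 stretch, chr4:156300075-156300324 on the plus strand, holds a nuclear receptor half-site, AAGGTCA, on the minus strand from -143 to -137, so that it reads TGACCTT.
Ppargc1a: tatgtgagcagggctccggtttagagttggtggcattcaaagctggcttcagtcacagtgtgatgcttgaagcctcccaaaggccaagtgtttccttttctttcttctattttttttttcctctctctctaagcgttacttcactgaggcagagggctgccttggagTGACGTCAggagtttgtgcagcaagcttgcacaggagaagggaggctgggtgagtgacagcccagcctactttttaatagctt
Perm1: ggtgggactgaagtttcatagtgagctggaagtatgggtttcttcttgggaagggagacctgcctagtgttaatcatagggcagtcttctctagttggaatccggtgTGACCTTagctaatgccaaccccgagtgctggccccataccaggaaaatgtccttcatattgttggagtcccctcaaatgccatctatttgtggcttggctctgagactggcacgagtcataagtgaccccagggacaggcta
Among 21247 windows of this length before protein-coding genes, 1.71% held TGACGTCA and 3.97% held AAGGTCA. Neither window held the longer ERR motif TNAAGGTCA (1.08% of windows), the MEF2 motif (3.31%), the NRF1 motif (3.67%), the ETS motif CCGGAAGT (2.65%) or the E-box CACGTG (6.33%). The ERR motif contains the half-site, so these 2 shares are not separate. Because 7 motifs were searched and the windows shown were chosen for their matches, the share of a single motif understates how often some match occurs.

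The total count lay between 17887532 and 26234518 per mouse. Levels are in CPM (the usual depth-scaled counts, with each library total first scaled by edgeR's TMM factor). Each of the 10 genes was counted in every mouse, with from 90 counts (Nrf1) to 8293 counts (Perm1) in a library, and all passed the minimum of 10 counts in 5 mice in every comparison. The defining markers of muscle fibres, Ckm, Acta1 and Ttn, were present in every library and summed to between 34237 and 62367 CPM. The first principal component, with 69.2% of the variance, separated MOV from sham mice, and each library had a mean correlation of 0.975 to 0.984 with the others of its group.

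Per kilobase of merged exons, the only scale on which different genes are compared here, Perm1 was the highest of the 10 in vehicle sham muscle with 72.0 ± 16.8 CPM per kb (SD, n = 5). Esrra followed with 31.4 ± 4.44, Tfam with 9.81 ± 1.23, Ppargc1a with 6.60 ± 1.14 and Esrrg with 6.10 ± 0.641. Below them came Ppard (4.18 ± 0.368), Ppargc1b (2.00 ± 0.301), Esrrb (1.94 ± 0.382), Ppara (1.64 ± 0.529) and Nrf1 (0.573 ± 0.0355). Ppargc1a and Esrrg did not differ beyond their spread, nor did Ppargc1b, Esrrb and Ppara. In vehicle MOV muscle the order in the middle of the list was different, with Esrrg at 8.78 ± 2.26, Tfam at 6.72 ± 0.316 and Ppargc1a at 3.44 ± 1.03 CPM per kb. Merged exons join all annotated transcripts, so that a gene with long alternative exons, such as Nrf1, is placed too low.

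**Figure D1:**
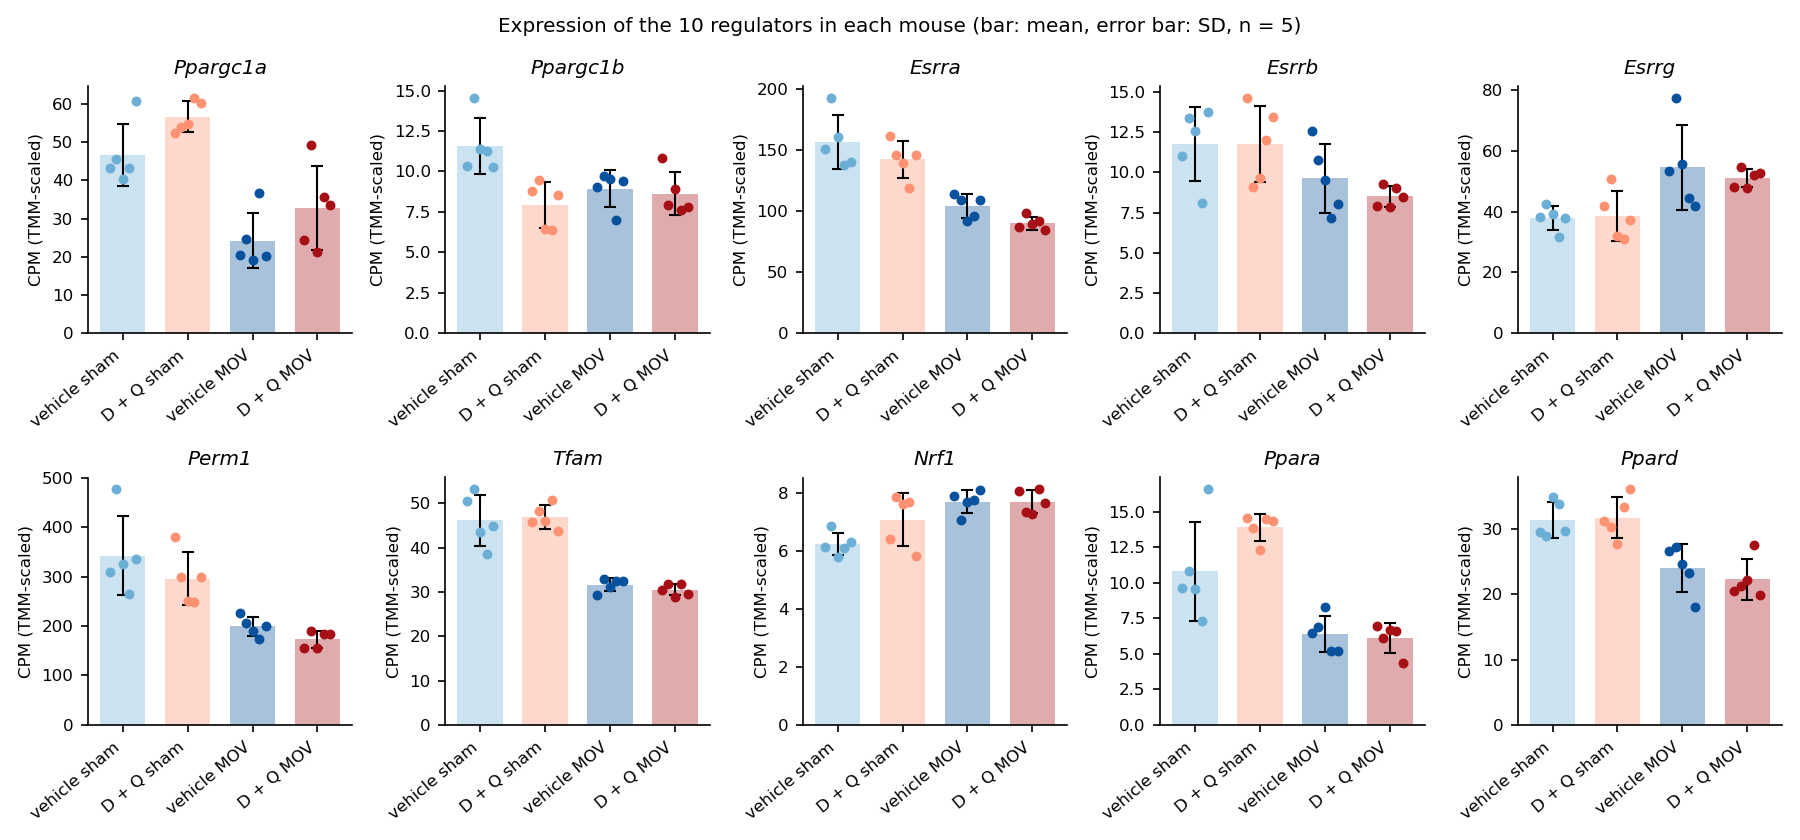
TMM-scaled CPM of each of the 10 regulators (panels, linear axes from 0) in each mouse of the 4 groups (points), with the mean (bar) and SD (error bar, n = 5). Perm1, Esrra and Tfam were lower in every MOV mouse than in any sham mouse of the same treatment, and Esrrg was higher on average in MOV.

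To see how these regulators stood in overloaded muscle, MOV was compared with sham in each treatment with edgeR's quasi-likelihood test, adjusted over all tested genes. With vehicle, 7 of the 10 fell, Ppargc1a, Ppargc1b, Perm1, Esrra, Ppara, Ppard and Tfam, whereas Esrrg and Nrf1 rose and Esrrb did not pass the test. With D + Q, 7 fell, Esrrb in place of Ppargc1b, and Esrrg was the 1 that rose. Calls were common in both comparisons: of 14601 genes tested with vehicle, 60.5% were called (30.7% higher and 29.8% lower), and of 14913 tested with D + Q, 65.3% (34.4% higher and 30.9% lower). The median log2 fold change of the 10 was -0.46 with vehicle and -0.52 with D + Q, against -0.02 and 0.02 over all tested genes. All 5 MOV mice lay apart from all 5 sham mice in 7 of the 10 with vehicle, where 46.5% of tested genes did so, and in 6 with D + Q, where 53.2% did so.

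How far these falls went depended on how the libraries were scaled. The TMM factors ran from 0.829 to 0.886 in sham mice and from 1.06 to 1.24 in MOV mice, so they did not overlap between the surgeries. As a share of the total count, markers of muscle fibres hardly differed on average between MOV and sham with vehicle. With D + Q that share was lower in MOV. Scaled by the total count alone, the median of all tested genes moved to 0.36 with vehicle and 0.39 with D + Q, and the share of called genes that were higher went from 50.8% to 84.1% and from 52.6% to 83.5%. With the summed counts of 15 myofibre markers as the library size, that median moved to 0.36 and 0.54, and the share to 84.9% and 92.1%. The median of the 10 regulators was then -0.08 (total counts) and -0.08 (myofibre markers) with vehicle, and -0.16 and -0.01 with D + Q. Relative to the median of all genes under the same scaling, it was -0.44 with vehicle and -0.54 with D + Q, which holds for any of the 4 scalings by construction, because a scaling moves all genes by about the same amount. With vehicle, 2 rose and 2 fell under total counts, and 2 rose and 1 fell under myofibre scaling. With D + Q, 3 rose and 4 fell under total counts, and 3 rose and 1 fell under myofibre scaling. Calls given below are relative to the TMM scale unless another is named.

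**Figure D2:**
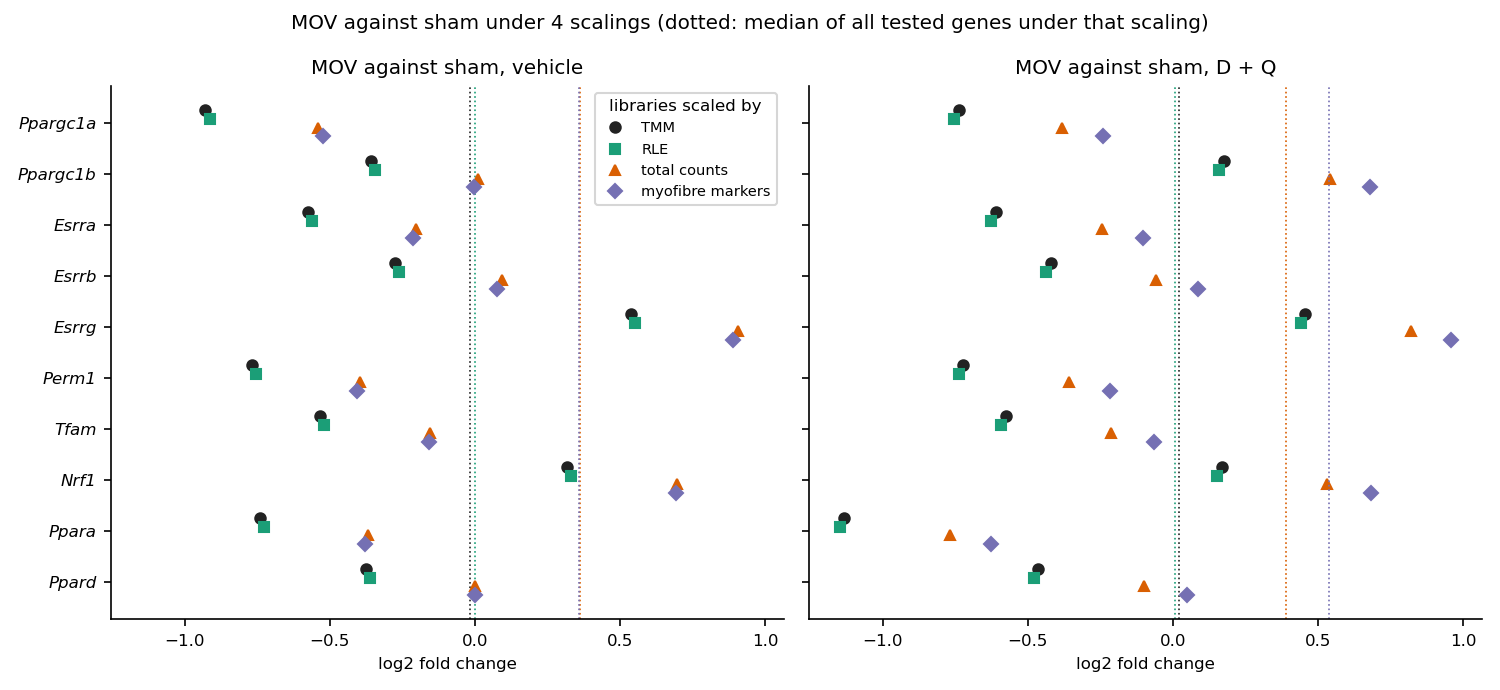
Log2 fold change of MOV against sham for each regulator with vehicle (left) and D + Q (right), with libraries scaled by TMM, RLE, total counts or summed myofibre markers (symbols). Dotted lines mark the median of all tested genes under each scaling. Esrrg lay right of 0 under each of the 4, and total counts and myofibre markers shifted the regulators and the median of all genes together.

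Bulk RNA cannot tell fewer cells of a type from less RNA per cell, and the makeup of the RNA differed between MOV and sham. The 15 myofibre markers summed to 95672 to 103231 CPM in vehicle sham, 97249 to 109845 in D + Q sham, 61246 to 89342 in vehicle MOV and 60099 to 75507 in D + Q MOV mice. With vehicle 9 of the 15 were lower and 3 higher in MOV on the TMM scale, and with D + Q 12 were lower and 1 higher. The TMM factors were higher in MOV, which by itself makes the CPM of MOV mice smaller. As a share of the total count, the 15 markers hardly differed on average with vehicle and were lower in MOV with D + Q. The 10 fibroblast markers, all higher in MOV with either treatment, summed to 514 to 786 CPM in vehicle sham, 634 to 1469 in D + Q sham, 7610 to 15111 in vehicle MOV and 13336 to 18942 in D + Q MOV mice. Of the 10 macrophage markers, 9 were higher with vehicle and 10 with D + Q, and their sum was 54.2 to 137 CPM in vehicle sham and 248 to 748 CPM in vehicle MOV mice. No marker of these lists was at 0 in all mice of a group. Their part in the differences of the regulators was not tested.

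Ppargc1a, the exercise-responsive coactivator, was lower in MOV with both treatments. Its level in mice 1 to 5 was 43.2, 45.5, 40.5, 43.3 and 60.7 CPM in vehicle sham and 20.5, 24.7, 19.1, 36.8 and 20.3 CPM in vehicle MOV. With D + Q it was 52.5, 54.1, 54.7, 61.6 and 60.2 CPM in sham and 24.3, 49.3, 21.4, 35.8 and 33.4 CPM in MOV. All MOV mice lay below all sham mice of their treatment, although mouse 4 of vehicle MOV and mouse 2 of D + Q MOV came close to the sham range. The log2 fold change was -0.93 with vehicle (SE 0.18, adjusted p = 0.00109 from edgeR) and -0.74 with D + Q (SE 0.21, adjusted p = 0.0115 from edgeR). It was -0.54 under total counts and -0.52 under myofibre scaling with vehicle, and -0.38 and -0.24 with D + Q, and of these 4 only the first passed the test.

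Ppargc1b, the second PGC-1 coactivator, was called between MOV and sham with vehicle and not with D + Q, a contrast that did not itself pass the test (interaction adjusted p = 0.791 from edgeR). In vehicle sham mice it was at 10.3, 14.6, 11.4, 11.3 and 10.3 CPM and in vehicle MOV mice at 9.03, 9.75, 9.56, 7.00 and 9.41 CPM, so that the groups did not overlap. In D + Q sham mice it was at 8.82, 9.50, 6.44, 6.36 and 8.55 CPM and in D + Q MOV mice at 10.8, 7.94, 8.93, 7.63 and 7.83 CPM, where the ranges overlapped. The vehicle sham group was the highest of the 4 on average, and the other 3 groups overlapped one another. Mouse 1 of D + Q MOV (10.8 CPM) also lay within the vehicle sham range. In vehicle mice it fell with MOV, by a log2 fold change of -0.36 (SE 0.13, adjusted p = 0.0216 in edgeR). That call was lost without mouse 2 of vehicle sham (adjusted p = 0.0692) and without mouse 4 of vehicle MOV (adjusted p = 0.0652), and the fold change was 0.01 under total counts. With D + Q it was 0.18 (SE 0.14, adjusted p = 0.277 from edgeR), and 0.54 under total counts and 0.68 under myofibre scaling, where it passed the test (adjusted p = 0.00296 and 0.000889 from edgeR).

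Perm1, the muscle protein induced by PGC-1 and ERR, fell with both treatments. Its CPM in mice 1 to 5 was 310, 477, 325, 264 and 335 in vehicle sham and 227, 207, 191, 173 and 201 in vehicle MOV. It was 380, 299, 251, 248 and 300 in D + Q sham and 155, 190, 155, 184 and 184 in D + Q MOV. No MOV mouse reached the lowest sham mouse of its treatment. The log2 fold change was -0.77 with vehicle (SE 0.13, adjusted p = 0.000230 from edgeR) and -0.72 with D + Q (SE 0.11, adjusted p = 6.62e-05 from edgeR). With vehicle the call held under each scaling, at -0.39 with total counts and -0.41 with myofibre markers, whereas with D + Q it was lost under myofibre scaling (-0.22, adjusted p = 0.166 from edgeR). Of the 2 genes that overlap Perm1, Plekhn1 was at 11.6 CPM in vehicle sham and 12.6 CPM in vehicle MOV, and Klhl17 was not analysed here.

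The 3 estrogen-related receptors did not move together. Esrra, the most abundant of them, was at 151, 193, 161, 138 and 141 CPM in vehicle sham and 115, 109, 91.6, 96.2 and 109 CPM in vehicle MOV mice. In D + Q sham mice it was at 162, 146, 139, 119 and 146 CPM and in D + Q MOV mice at 86.9, 98.6, 89.3, 91.7 and 84.8 CPM. It was lower in every MOV mouse than in any sham mouse of the same treatment. The log2 fold change was -0.58 with vehicle (SE 0.10, adjusted p = 9.84e-05 from edgeR) and -0.61 with D + Q (SE 0.07, adjusted p = 8.46e-07 from edgeR). With vehicle it no longer passed under total counts (-0.20) or myofibre scaling (-0.21), nor with D + Q under myofibre scaling (-0.10). Trmt112, which overlaps it, was at 20.2 CPM in vehicle sham and 21.3 CPM in vehicle MOV.

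Esrrg, the estrogen-related receptor tied to oxidative fibres, rose with both treatments. It was at 38.3, 42.5, 39.1, 31.5 and 38.0 CPM in vehicle sham and 53.4, 77.4, 55.4, 44.4 and 41.9 CPM in vehicle MOV mice. With D + Q it was at 41.9, 50.6, 31.8, 30.9 and 37.3 CPM in sham and 47.9, 54.6, 47.8, 51.8 and 52.6 CPM in MOV mice. The groups overlapped by 1 sham mouse in each treatment, mouse 2 in both cases. The log2 fold change was 0.54 with vehicle (SE 0.15, adjusted p = 0.00791 from edgeR) and 0.46 with D + Q (SE 0.12, adjusted p = 0.00386 from edgeR). It passed the test in each of the 8 other settings of scaling, tool, filter, fit and block and in each of the 10 fits without 1 mouse, with either treatment, and reached 0.91 with vehicle (total counts) and 0.96 with D + Q (myofibre markers). Esrrb, the least abundant receptor of the 3, ranged from 8.09 to 13.8 CPM in vehicle sham and from 7.17 to 12.6 CPM in vehicle MOV mice (log2 fold change -0.28, adjusted p = 0.169 from edgeR). With vehicle it passed once mouse 4 of vehicle sham was left out (-0.39, adjusted p = 0.0442 from edgeR). It was called with D + Q (-0.42, SE 0.13, adjusted p = 0.00719 from edgeR), where sham mice ranged from 9.07 to 14.6 and MOV mice from 7.86 to 9.28 CPM, a call that was lost under total counts (-0.06), and its direction turned under myofibre scaling (0.09). The difference between its 2 changes did not pass the test (interaction -0.18, adjusted p = 0.955 from edgeR).

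A ratio of 2 genes within a library does not depend on scaling. The 5 ratios given here were chosen after the values were seen, so they are descriptions with no test. The log2 ratio of Esrrg to Esrra counts went from -2.05 ± 0.118 to -0.96 ± 0.351 with vehicle and from -1.91 ± 0.224 to -0.82 ± 0.0808 with D + Q (SD, n = 5 each). The difference was 1.08 in both, with no overlap between MOV and sham mice. The Nrf1 to Tfam ratio was higher in MOV by 0.84 with vehicle and 0.75 with D + Q, again without overlap. The Ppard to Ppara ratio was higher by 0.68 with D + Q, without overlap, and by 0.32 with vehicle, where the groups overlapped. MOV and sham mice overlapped with both treatments for the other two ratios. The Ppargc1b to Ppargc1a ratio was higher by 0.60 with vehicle and 0.98 with D + Q, and the Perm1 to Ppargc1a ratio by 0.21 and 0.09.

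**Figure D3:**
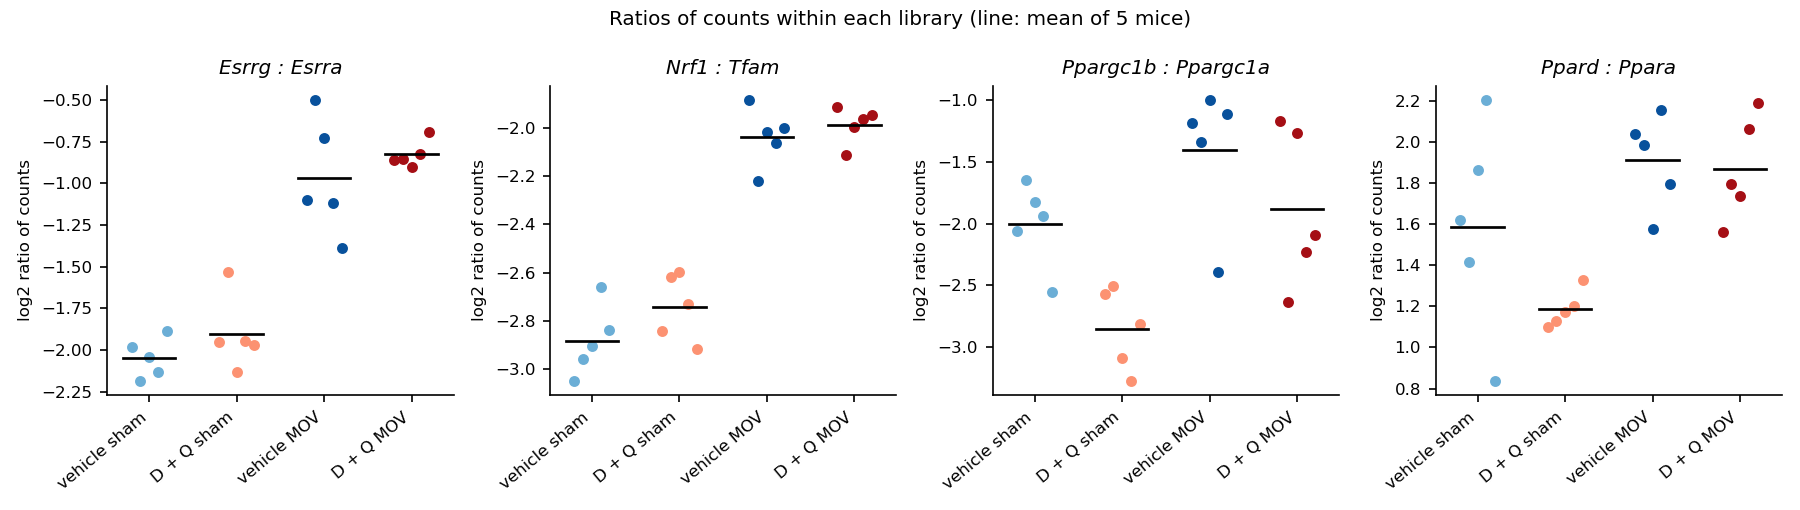
Log2 ratio of the counts of 2 regulators within each library (points, vertical axis) in the 4 groups, with the mean of 5 mice (line). For Esrrg to Esrra and Nrf1 to Tfam all MOV mice lie above all sham mice, whereas for Ppargc1b to Ppargc1a the D + Q sham mice lie lowest on average.

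The lipid-sensing receptors both fell on the TMM scale. Ppara, the receptor of fatty acid oxidation genes, was at 9.62, 10.9, 9.60, 7.34 and 16.6 CPM in vehicle sham and 6.46, 6.90, 8.28, 5.20 and 5.19 CPM in vehicle MOV mice. With D + Q it was at 14.6, 13.9, 12.3, 14.5 and 14.4 CPM in sham and 6.96, 6.11, 6.66, 6.60 and 4.34 CPM in MOV mice. The vehicle groups overlapped, while the D + Q groups were far apart and the D + Q sham mice lay close together. The log2 fold change was -0.74 with vehicle (SE 0.20, adjusted p = 0.00550 from edgeR) and -1.13 with D + Q (SE 0.12, adjusted p = 2.17e-07 from edgeR), and the latter was called under each scaling, at -0.63 by myofibre markers. The vehicle call of Ppara was lost under total counts (-0.37, adjusted p = 0.135 from edgeR) and under myofibre scaling (-0.38, adjusted p = 0.159 from edgeR). The difference between these 2 changes was itself not past the test (interaction -0.43, 95% interval -0.92 to 0.07, adjusted p = 0.862 from edgeR). Cdpf1 overlaps Ppara on the opposite strand. With vehicle Cdpf1 went from 21.9 CPM in sham to 17.8 CPM in MOV (log2 fold change -0.29, adjusted p = 0.0668 from edgeR). With D + Q Cdpf1 was called lower, from 19.3 CPM in sham to 15.3 CPM in MOV (log2 fold change -0.29, adjusted p = 0.0148 from edgeR). The part of Cdpf1 in the Ppara counts was not tested. Ppard, the more abundant PPAR of this pair, fell from 31.4 ± 2.77 to 24.0 ± 3.70 CPM with vehicle (-0.38 on the log2 scale, adjusted p = 0.00610 from edgeR) and from 31.7 ± 3.17 to 22.3 ± 3.11 CPM with D + Q (-0.46, adjusted p = 0.000254 from edgeR; SD, n = 5 each). Under total counts Ppard lay at 0.00 with vehicle and -0.10 with D + Q and was not called.

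Tfam, the packaging and transcription factor of mitochondrial DNA, had little spread in MOV mice. It ranged from 38.6 to 53.2 CPM in vehicle sham and from 29.2 to 32.9 CPM in vehicle MOV mice, and from 43.7 to 50.8 CPM in D + Q sham and from 29.0 to 31.7 CPM in D + Q MOV mice. The groups did not overlap in either treatment. The log2 fold change was -0.53 with vehicle (SE 0.08, adjusted p = 6.48e-05 from edgeR) and -0.58 with D + Q (SE 0.06, adjusted p = 1.58e-07 from edgeR), and -0.16 and -0.06 under myofibre scaling, neither of them called. Nrf1, the factor of respiratory gene promoters, was low, at 6.12, 6.85, 5.80, 6.11 and 6.30 CPM in vehicle sham and 7.91, 7.05, 7.67, 7.74 and 8.10 CPM in vehicle MOV mice. It rose with vehicle (0.32 on the log2 scale, SE 0.11, adjusted p = 0.0193 by edgeR), a call lost without the count minimum (adjusted p = 0.0535). With D + Q the sham mice ranged more widely, from 5.80 to 7.85 CPM, and the change of 0.17 was not called (SE 0.11, adjusted p = 0.205 from edgeR), except under total counts (0.53) and myofibre scaling (0.68). The difference between the 2 changes of Nrf1 did not pass the test (interaction -0.18, adjusted p = 0.930 from edgeR).

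**Figure D4:**
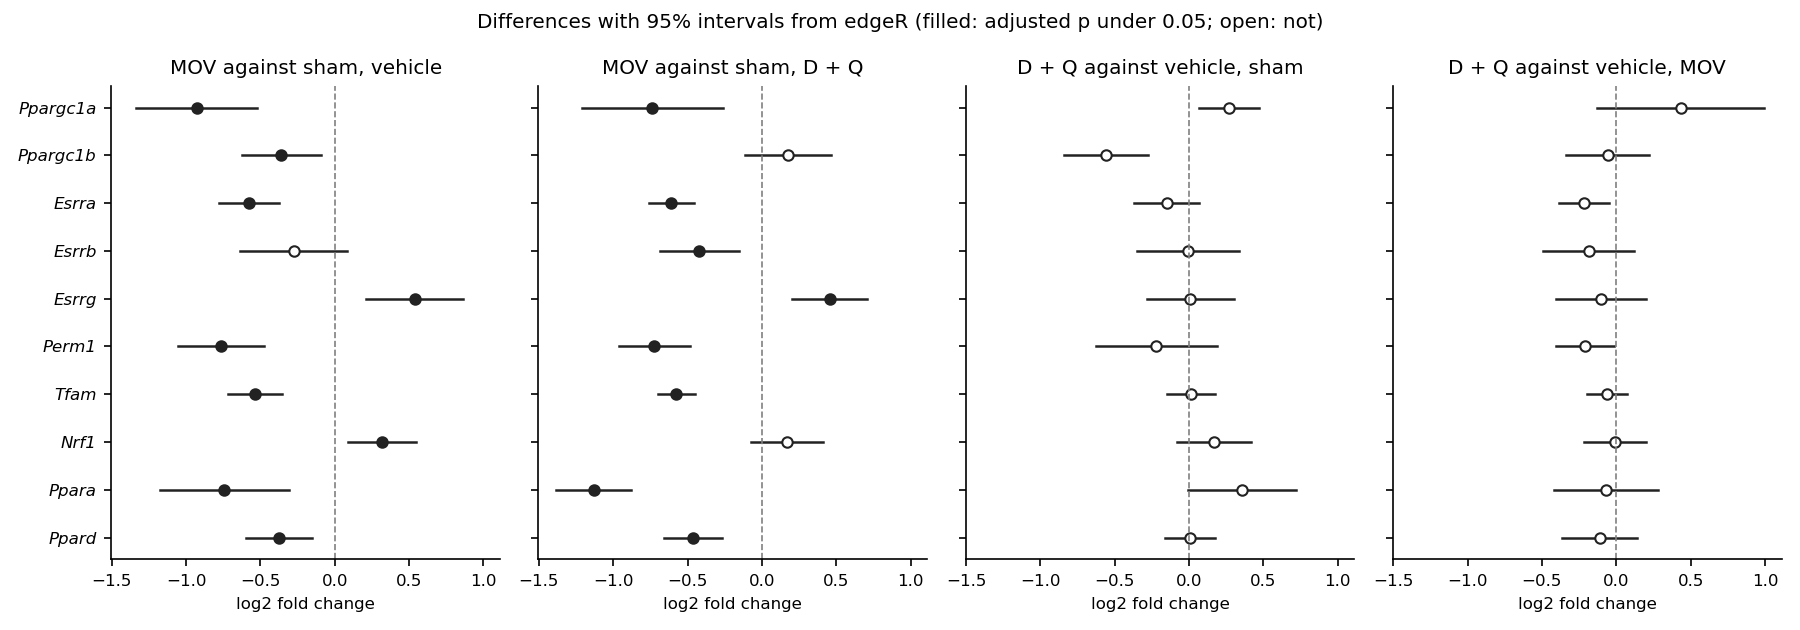
Log2 fold change of each regulator (points) with its 95% interval (lines) in the 4 comparisons, from edgeR. Filled points have an adjusted p under 0.05. Both MOV comparisons hold filled points on either side of 0, and the D + Q comparisons hold none.

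The genes around these regulators were described from lists, by counts, with the same edgeR fits. For each list below, the shares over all tested genes were 29.8% lower and 30.7% higher with vehicle. With D + Q these shares were 30.9% lower and 34.4% higher. Of 33 partners and upstream regulators, 24 fell and 1 rose with vehicle and 22 fell and 2 rose with D + Q. Rxrg, a retinoid X receptor that pairs with PPARs (log2 fold change -1.33 and -1.28), and Camk2a, a calcium-dependent kinase (-1.23 and -1.10), fell most with both treatments. Prkaa2 (-1.12 with vehicle), the AMP-activated kinase subunit typical of muscle fibres, fell, whereas Prkaa1, the subunit found widely outside muscle, rose (0.43 and 0.39). Nrip1, a corepressor of ERR and PPAR receptors, fell with D + Q (-1.07), and Gabpb1, a subunit of the ETS-type factor NRF-2, rose with D + Q (0.37). The median of this list was -0.41 with vehicle and -0.35 with D + Q on the TMM scale, -0.03 with vehicle under myofibre scaling, and turned to 0.16 with D + Q under that scaling and to 0.02 under total counts.

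Of the machinery that works beside TFAM on mitochondrial DNA, 10 of 16 tested genes fell with vehicle, and 11 of 17 fell and 1 rose with D + Q. Mgme1, a mitochondrial nuclease (-1.01 with vehicle and -0.97 with D + Q), Lrpprc, which stabilises mitochondrial messenger RNA (-0.84 and -0.80), and Tfb2m, the partner of TFAM in starting transcription (-0.68 and -0.66), fell most, and Mterf4 rose with D + Q (0.43). The median was -0.29 and -0.37, and it turned to 0.07 and 0.14 under myofibre scaling and, with vehicle, to 0.08 under total counts.

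Among 25 oxidative enzymes and ERR-responsive genes, 24 fell with vehicle and 24 with D + Q, and the medians were -0.68 and -0.66. They included Sdha, a subunit of complex II (-0.95 with vehicle and -0.94 with D + Q), Idh3a (-0.85 with vehicle) and Idh3g (-0.84 and -0.86), subunits of a citric acid cycle dehydrogenase, and Slc25a4, the muscle ADP/ATP carrier (-0.82 with D + Q). The median kept its sign under each scaling, at -0.31 with vehicle and -0.15 with D + Q under myofibre scaling, where 19 and 8 genes fell and 1 rose in each. Among 20 PPAR-responsive lipid genes, 16 fell and 2 rose with vehicle and 18 fell and 1 rose with D + Q (medians -0.61 and -0.70, and -0.25 and -0.19 under myofibre scaling). Plin5, a lipid droplet protein of oxidative tissue (-1.30 and -1.51), Acadm, an acyl-CoA dehydrogenase (-1.04 and -1.01), and Ucp3, a mitochondrial carrier (-0.97 and -1.59), fell, while Angptl4, a secreted inhibitor of lipoprotein lipase (2.04 with vehicle), and Plin2, a widely expressed lipid droplet protein (0.28 and 0.17), rose. Of 13 genes of mitochondrial dynamics and turnover, 11 fell with vehicle and 12 with D + Q, led by Pink1 (-0.91 and -0.99), a kinase of mitophagy, and the fusion factors Mfn1 (-0.76 and -0.74) and Opa1 (-0.74 and -0.72). The median of the latter list, -0.41 and -0.36, turned to 0.16 with D + Q under myofibre scaling, where 5 rose and 3 fell, and to 0.00 under total counts.

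**Figure D5:**
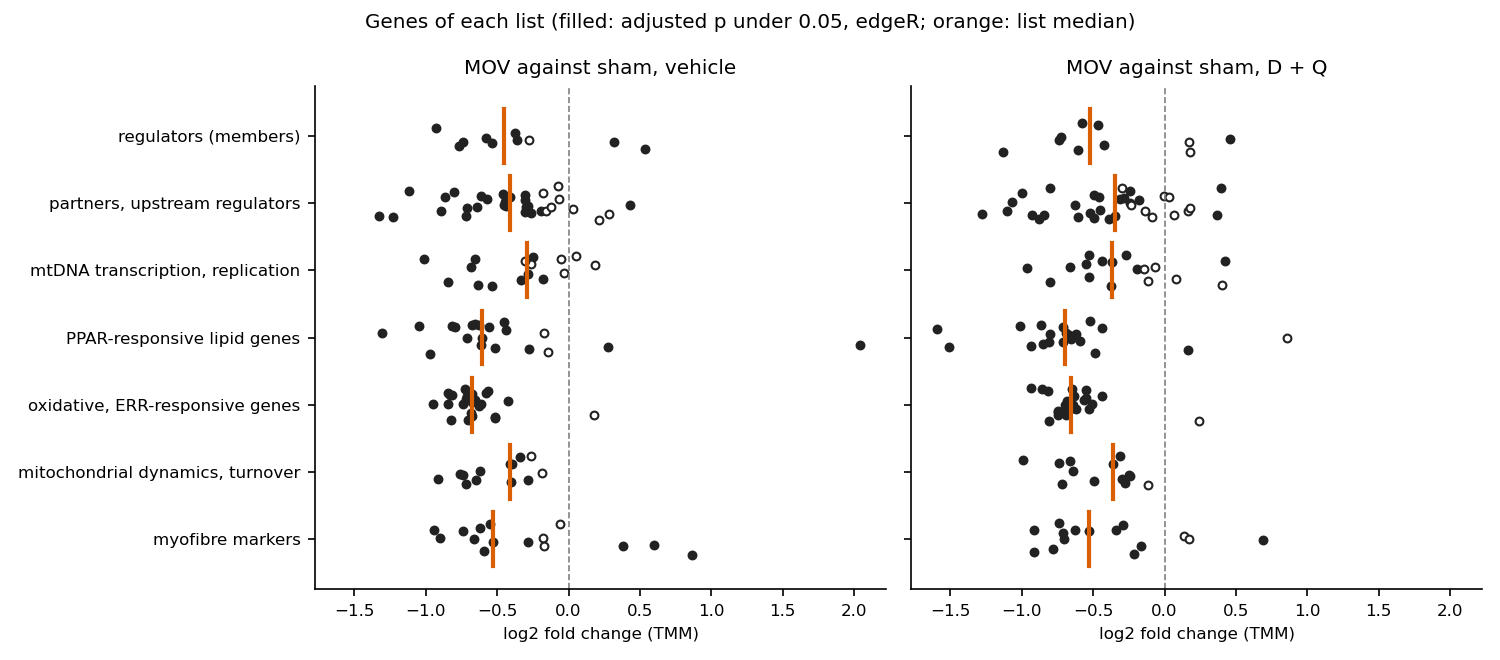
Log2 fold change (TMM scale) of the genes of each list (points) in MOV against sham with vehicle (left) and D + Q (right). Filled points have an adjusted p under 0.05, and the orange line is the list's median. The medians of all lists shown lie below 0 on this scale.

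Genes of fibre type were read beside the regulators. With vehicle 5 of 15 rose and 6 fell, where 30.7% and 29.8% of all tested genes did. With D + Q 7 rose and 5 fell, where 34.4% and 30.9% did. The counts of this list were therefore not far from the shares over all genes. The slow-fibre troponins Tnni1 (log2 fold change 3.03 with vehicle and 4.26 with D + Q) and Tnnc1 (2.23 and 3.37) rose, and so did Myh7, the slow myosin, with D + Q (3.14). Myh4, the myosin of the fastest fibres (-1.56 and -1.51), Tnnt3 (-1.23 and -1.16) and the fast calcium pump gene Atp2a1 (-0.97 with vehicle) fell. Their part in the differences of the regulators was not tested.

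The question of whether D + Q itself was accompanied by different levels was asked in sham and in MOV mice separately. In sham muscle none of the 10 regulators was called, where 0.215% of 13926 tested genes were. At an unadjusted p under 0.05 there were 2, Ppargc1b and Ppargc1a, where 10.2% of tested genes were. DESeq2 called 1, Ppargc1b, among 133 genes in all, against 30 called by edgeR. The D + Q sham mice all lay below the vehicle sham mice for Ppargc1b, which was the case for 1 of the 10 regulators and for 2.12% of tested genes. Its log2 fold change was -0.56 (SE 0.13, 95% interval -0.84 to -0.28, unadjusted p = 0.000587 and adjusted p = 0.112 from edgeR). It was called by DESeq2 (adjusted p = 0.0213) and, among 67 genes in all, without the count minimum (adjusted p = 0.0333 from edgeR). Ppargc1a lay the other way, at 46.6 ± 8.07 CPM with vehicle and 56.6 ± 4.03 CPM with D + Q (SD, n = 5; log2 fold change 0.27, 95% interval 0.07 to 0.47, adjusted p = 0.341 from edgeR). Within libraries, the log2 ratio of Ppargc1b to Ppargc1a was -2.01 ± 0.345 with vehicle and -2.85 ± 0.328 with D + Q (SD, n = 5), a difference of -0.85 that is given with no test.

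Mouse 5 of vehicle sham was the highest of its group for both Ppargc1a (60.7 CPM) and Ppara (16.6 CPM). Without it, Ppargc1a (log2 fold change 0.38, adjusted p = 0.0120 from edgeR) and Ppara (0.56, adjusted p = 0.0337 from edgeR) passed the test for D + Q against vehicle in sham muscle, and 74 genes did so in all, against 30 with it. Left in, Ppara was at 0.36 (95% interval -0.01 to 0.72, adjusted p = 0.498 from edgeR). The remaining regulators lay between -0.22 (Perm1, 95% interval -0.63 to 0.19) and 0.17 (Nrf1, 95% interval -0.08 to 0.42), and intervals of this width leave room for sizeable differences in Perm1 and narrower ones in Tfam (0.01, -0.15 to 0.17) and Ppard (0.01, -0.16 to 0.17).

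In MOV muscle none of the 10 regulators was called between D + Q and vehicle, where 0% of 15238 tested genes were (0 genes, 1340 at an unadjusted p under 0.05, and 11 with DESeq2). Esrra and Perm1 had an unadjusted p under 0.05, where 8.79% of tested genes did, and DESeq2 called 0 of the 10. Esrra was lower with D + Q, at 90.3 ± 5.33 against 104 ± 9.78 CPM (SD, n = 5; log2 fold change -0.22, 95% interval -0.38 to -0.05, adjusted p = 0.523 from edgeR). Perm1 was at 173 ± 17.1 against 199 ± 19.8 CPM (log2 fold change -0.21, 95% interval -0.40 to -0.02, adjusted p = 0.547 from edgeR). Under myofibre scaling these differences were -0.07 and -0.07. Ppargc1a lay higher with D + Q, at 32.8 ± 11.0 against 24.3 ± 7.30 CPM, with a wide interval (log2 fold change 0.43, 95% interval -0.13 to 0.99, adjusted p = 0.631 from edgeR). For no regulator did the D + Q MOV mice lie apart from the vehicle MOV mice, as 1.5% of tested genes did.

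On the TMM scale, the 25 oxidative and ERR-responsive genes all had a log2 fold change below 0 in D + Q against vehicle. Their medians were -0.15 in sham and -0.15 in MOV mice, against -0.004 and 0.002 over all tested genes. Under myofibre scaling the medians were -0.18 in sham and -0.0054 in MOV mice, and 25 and 14 of the 25 genes lay below 0. None was called in either by edgeR on the TMM scale. An unadjusted p under 0.05 was found for 12 in sham and 5 in MOV, where 10.2% and 8.79% of tested genes had one. DESeq2 called 0 of them in sham and 1 in MOV, where it called 133 and 11 genes in all. The 1 was Ckmt2, the mitochondrial creatine kinase of muscle, singled out here after its value was seen. Fibroblast markers lay above 0 in 10 of 10 in both, with medians of 0.63 in sham and 0.39 in MOV, and their part in the difference was not tested. No gene of the other pathway lists was called in these comparisons.

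The test of whether the MOV difference itself depended on D + Q, an interaction over all 20 mice, called none of the 10 regulators, where 0.0127% of 15700 tested genes were called, and DESeq2 called 0 as well. At an unadjusted p under 0.05 there was 1, Ppargc1b, where 5.71% of tested genes were. Its MOV difference was -0.36 with vehicle and 0.18 with D + Q, and the interaction was 0.50 (SE 0.19, 95% interval 0.11 to 0.89, unadjusted p = 0.0149 and adjusted p = 0.791 from edgeR). These comparisons share sham or MOV groups with those above. For Ppargc1a the interaction was 0.16 (95% interval -0.46 to 0.77), for Esrrg -0.12 (-0.55 to 0.32) and for Perm1 0.01 (-0.38 to 0.40). With 5 mice a group, differences inside these intervals remain compatible with the data.

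After each group's mean had been taken off, the 10 regulators were related to one another over the 20 mice in 45 pairs, with labels permuted within groups. Esrra and Perm1 varied together (Pearson's r = 0.83, permutation p = 0.00015, adjusted p = 0.00675; Spearman's rho = 0.78, adjusted p = 0.0081). Pearson's r was 0.74 without the 2 mice farthest from the median of the first gene, 0.89 over the 10 sham and 0.67 over the 10 MOV mice. No other pair had an adjusted p under 0.05 by r, and 7 of the 45 had an unadjusted p under 0.05. By rho, Perm1 also passed with Esrrb (rho = 0.71, permutation adjusted p = 0.0385; r = 0.69, adjusted p = 0.112) and with Esrrg (rho = 0.68, permutation adjusted p = 0.0385; r = 0.56, adjusted p = 0.162). Ppargc1a and Ppargc1b had r = -0.54 (permutation p = 0.0144, adjusted p = 0.162; rho = -0.52, adjusted p = 0.21). Libraries share their scaling and RNA makeup across genes, so the relations are descriptions of these mice.

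Among 13200 genes with a mean of at least 1 CPM, those most like Perm1 after the same centring, over 20 mice, were Ndufab1 (r = 0.93, rho = 0.92), a subunit of complex I, Gm10053 (r = 0.92, rho = 0.86) and Akap1 (r = 0.92, rho = 0.92), an anchor protein of the outer mitochondrial membrane. Most like Esrra were Uqcrc1 (r = 0.93, rho = 0.88) and Cyc1 (r = 0.91, rho = 0.89), subunits of complex III, and Abhd11 (r = 0.92, rho = 0.93). Esrrg was most like Pdha1 (r = 0.82, rho = 0.84), a subunit of pyruvate dehydrogenase, Smtnl1 (r = 0.82, rho = 0.86) and Rcan2 (r = 0.78, rho = 0.78). Ppargc1a was most like Agfg1 (r = 0.78, rho = 0.71), Ifi35 (r = 0.77, rho = 0.69) and AW112010 (r = 0.75, rho = 0.42). The values of r are the highest of many and carry no test.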

How the data were processed

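RNA of 20 plantaris muscles was measured, 1 library per mouse. Per the submitters' processing notes, the authors used STAR 2.7.8a, GRCm39 and Partek, and deposited estimated counts per gene, not normalized, of which 28.8% are not whole; they were rounded. The table holds only genes with at least 10 counts over the 20 mice. Mice were grouped by the labels, and genes were tested with edgeR 4.0.16 (R 4.3.3; quasi-likelihood, robust, TMM, at least 10 counts in at least 5 mice, Benjamini-Hochberg adjustment, threshold 0.05), using the 10 mice of the 2 groups compared, or the whole 20 for the interaction. Nothing says that batches existed. Totals of 17887532 to 26234518 limit precision for low genes, and p-values measure the spread between these mice. Alternatives were DESeq2 1.42.0, RLE factors, total counts, myofibre marker scaling, other count minimums, one fit of all 20 mice, the replicate block and each mouse left out. Exact permutation tests used the 252 divisions of 10 mice. The 45 relations between regulators used 100000 permutations. The test was tested on simulated data, with acceptance limits set after a first result had been seen: it missed most changes of the smaller size simulated and some of the larger, and the share of false calls was above the threshold. Within groups, the count variance was at least 6.53 times sampling noise, which by itself cannot show that libraries are separate mice. Each library was taken as 1 mouse from the labels. Members and lists were chosen with earlier results of these data known. Named genes were the members, up to 3 genes each way per pathway list with the largest called change in each comparison, and the 3 genes most like Ppargc1a, Perm1, Esrra and Esrrg. Positions and upstream windows came from GENCODE vM39 on GRCm39. The Ppargc1b window was not used.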

Additional observations from a re-analysis of the deposited data

Results flagged for a closer look

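In 40 sets of 5 mice, 10 regulators in 4 groups, 3 held a mouse whose distance from the nearest other mouse was large beside the range of its group, where chance gives about 1 set in 20. Mouse 5 of vehicle sham had 60.7 CPM of Ppargc1a, and the next highest mouse had 45.5 CPM. Mouse 2 of the same group had 14.6 CPM of Ppargc1b, and the next had 11.4 CPM. Mouse 4 of vehicle MOV had 7.00 CPM of Ppargc1b, the lowest of its group, and the next lowest had 9.03 CPM. Leaving out the first of these let Ppargc1a and Ppara pass for D + Q against vehicle in sham muscle, and leaving out either of the others took the call of Ppargc1b between vehicle MOV and vehicle sham, with the values given above. The sources of these distances were not tested.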

How the results depend on the processing

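With vehicle, regulators called between MOV and sham numbered 9, 4 under total counts, 3 under myofibre scaling and 8 to 10 with a mouse left out; with D + Q, 8, 4 under myofibre scaling and 8 with any mouse left out. Exact permutation tests of total-count CPM had p under 0.05 for 4 regulators between vehicle MOV and sham (9 on the TMM scale) and for 2 between D + Q and vehicle MOV (1 on the TMM scale). Over all genes, D + Q against vehicle in sham gave 30 calls, 133 with DESeq2, 49 under total counts, 3 under myofibre scaling, 67 without the count minimum, 19 with all 20 mice in one fit and 2 to 74 with a mouse left out. Regulators called there numbered 0, 1 with DESeq2, 1 without the count minimum and 0 to 2 with a mouse left out (2 without mouse 5 of vehicle sham). D + Q against vehicle in MOV gave 0 calls, 11 with DESeq2 and 0 to 2 with a mouse left out, and the interaction 2, 1 under myofibre scaling and 2 to 3. The causes of these shifts were not tested, apart from the scaling itself, which moves all genes.

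Among the values that turned direction, Ppargc1b and Ppard with vehicle and Esrrb and Ppard with D + Q had been called lower in MOV than in sham. Between MOV and sham with vehicle, Ppargc1b (0.011), Esrrb (0.095) and Ppard (0.00068) turned under total counts and Esrrb (0.077) under myofibre scaling, and with D + Q Esrrb (0.088) and Ppard (0.050) did under the latter. For D + Q against vehicle in sham, Esrrb turned under total counts (0.026) and in the fit of all mice (0.0021), and Esrrg (-0.018), Tfam (-0.024) and Ppard (-0.030) under myofibre scaling. With a mouse left out, Esrrb ran from -0.12 to 0.071, Esrrg from -0.10 to 0.082, Tfam from -0.047 to 0.075 and Ppard from -0.044 to 0.053. In MOV, Ppargc1b (0.0039) and Nrf1 (0.042) turned under total counts, and Ppargc1b (0.092), Esrrg (0.054), Tfam (0.072), Nrf1 (0.12), Ppara (0.067) and Ppard (0.021) under myofibre scaling. With a mouse left out, Esrrg ran from -0.18 to 0.054, Nrf1 from -0.041 to 0.014 and Ppara from -0.14 to 0.044. The interaction turned under myofibre scaling for Esrra (0.11), Esrrb (0.011), Esrrg (0.070), Tfam (0.095) and Ppard (0.052), and with a mouse left out it ran from -0.20 to 0.025 for Esrrg, from -0.14 to 0.12 for Perm1 and from -0.038 to 0.36 for Ppargc1a.

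Mice numbered alike in 2 groups did not deviate together (correlations from -0.15 to 0.19, 0 or 1 of 5 pairs over 0.1, and 0 or 1 of 5 mice correlating best with its own number), so the numbers were not taken to pair mice. With the number as a replicate block, MOV against sham gave 8694 calls with vehicle and 9411 with D + Q, D + Q against vehicle gave 19 in sham and 2 in MOV, and the interaction gave 1. The calls of regulators under the block numbered 9, 8, 0, 0 and 0, as without it, and Esrrg in D + Q against vehicle sham turned to -0.0030.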
